A study of Mus musculus with 11 samples.

Results

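A set of 9 genes that mark resting microglia, at their surface or secreted by them, was followed through 11 RNA-seq libraries of GL261 mouse glioma: P2ry12, P2ry13, Tmem119, Gpr34, Olfml3, Fcrls, Cx3cr1, Selplg and Slc2a5. They were taken as a named set and matched by symbol to the gene identifiers of the count tables, where all 9 were found among 50686 identifiers. All 9 had enough counts to be tested in every comparison. GL261 is a mouse glioma cell line that grows as a syngeneic graft in the brain, so the microglia around it are the host's own.

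The study removed Rheb1 (gene symbol Rheb), the small GTPase that activates mTORC1, from microglia and asked what this does to the tumour and its microglia. Of the 6 bulk tumour libraries, replicates 35, 38 and 110 were Rheb1 fl/fl, while replicates 26, 36 and 37 were Cx3cr1-Rheb1 Δ/Δ. Tumour-associated microglia (TAM-MG), gated as single live CD11b+ CD45low cells, gave 2 libraries from Rheb1 fl/fl mice (replicates 74 and 78) and 3 from Rheb1 Δ/Δ mice (replicates 54, 63 and 65). All mice were C57BL/6, all carried the floxed Rheb1 allele, all had received tamoxifen before grafting, were injected with GL261 cells at 6 weeks of age and were sampled 3 weeks after that. The labels call the fl/fl mice wild type, but they are floxed mice without Cre. The Δ/Δ mice also carried Cre-ERT2 knocked into the Cx3cr1 locus, which is itself one of the 9 genes: the dose of Cx3cr1 therefore differs between the genotypes by design, and the number of intact Cx3cr1 copies is not given in the sources used here. This promoter is also active in other mononuclear phagocytes, so the deletion need not be limited to microglia. Bulk RNA was taken from formalin-fixed, paraffin-embedded (FFPE) sections and TAM-MG RNA from sorted cells, so the 2 experiments differ in RNA source as well as in cell content.

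Microglia in a healthy brain keep a characteristic set of surface proteins with which they sense nucleotides, lipids and chemokines released by neurons and injured cells. This set depends on TGF-β signalling and on lineage factors such as PU.1, and it is known to be turned down when microglia respond to damage, inflammation or a tumour, while genes such as Apoe and Spp1 go up. Several of the 9 genes, P2ry12 and Tmem119 above all, are used to tell microglia from macrophages that come from the blood.

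Total counts ranged from 14940787 to 21991348 per library in bulk tumours and from 20765767 to 29947977 in TAM-MG. Rheb, the deleted gene, was at 235 to 348 CPM (read counts normalised to library size, with TMM factors) in the 3 bulk fl/fl tumours and at 125 to 225 in the Δ/Δ tumours. It was at 86.5 and 164 CPM in fl/fl TAM-MG against 67.8 to 71.2 in Δ/Δ TAM-MG. The groups did not overlap in either experiment, and in bulk 9.23% of all tested genes were separated in the same direction. In TAM-MG the gap lay between 71.2 and 86.5 CPM. There 14.6% of all tested genes were separated in the opposite direction, with Δ/Δ higher, and the share in the direction of Rheb is not given here. The log2 fold change was -0.88 (SE 0.321, adjusted p = 0.426 in edgeR's quasi-likelihood test) in bulk. In TAM-MG it was -0.85 (SE 0.343, adjusted p = 0.552 in the same test). Whether the bulk difference came from the deletion in microglia was not tested. The sort gate was visible in its own genes: Itgam (CD11b) was at 145 to 445 CPM and Ptprc (CD45) at 269 to 491 CPM in TAM-MG. Bulk fl/fl replicate 35 stood apart in that it held 10643 counts of Xist and none of Ddx3y, while each of the other 10 libraries held Ddx3y counts and at most 5 of Xist. One of the 9 genes, Gpr34, is on the X chromosome.

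The genes were laid out as follows in GRCm38 (GENCODE M21). P2ry12 (ENSMUSG00000036353, chr3:59216272-59262871, minus strand) and P2ry13 (ENSMUSG00000036362, chr3:59207892-59210882, minus strand) are neighbours that both lie within Med12l on the opposite strand, with which P2ry12 shares 9 exonic bases and P2ry13 none. Fcrls (ENSMUSG00000015852, chr3:87250758-87263738, minus strand) and Olfml3 (ENSMUSG00000027848, chr3:103722222-103738001, minus strand) are on the same chromosome. Tmem119 (ENSMUSG00000054675, chr5:113793729-113800516, minus strand) and Selplg (ENSMUSG00000048163, chr5:113818536-113832644, minus strand) are close neighbours. Gpr34 (ENSMUSG00000040229, chrX:13632089-13640858, plus strand) lies within Cask on the opposite strand and shares no exonic base with it. Cx3cr1 (ENSMUSG00000052336, chr9:119901616-120069879, minus strand) has a long annotated gene model that spans several other genes and shares 78 of its 4505 exonic bases with the antisense gene Gm33858, and Slc2a5 (ENSMUSG00000028976, chr4:150119283-150144169, plus strand) overlaps no other gene. The library kit does not mark strand, so reads in the shared bases cannot be assigned to one of the partners.

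Promoters of 6 of the 9 genes were in the RefSeq table (GRCm38.p6): P2ry12, P2ry13, Fcrls, Olfml3, Slc2a5 and Cx3cr1. The 250 bases before the RefSeq start of 3 of them are shown. P2ry12 and P2ry13 were taken because these neighbouring genes had the most closely related levels of all pairs in TAM-MG. Fcrls was taken because it held the most motif matches. Capitals mark GAGGAA, a core sequence bound by PU.1, and TGTGGT, a core sequence bound by RUNX factors, read on either strand (as ACCACA where TGTGGT is on the other strand). No marked stretches overlap.
P2ry13, chr3:59210883-59211132, minus strand: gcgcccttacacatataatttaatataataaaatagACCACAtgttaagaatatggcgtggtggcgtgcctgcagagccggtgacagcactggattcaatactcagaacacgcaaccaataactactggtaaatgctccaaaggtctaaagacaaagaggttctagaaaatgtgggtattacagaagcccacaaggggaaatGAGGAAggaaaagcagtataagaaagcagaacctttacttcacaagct
P2ry12, chr3:59262986-59263235, minus strand: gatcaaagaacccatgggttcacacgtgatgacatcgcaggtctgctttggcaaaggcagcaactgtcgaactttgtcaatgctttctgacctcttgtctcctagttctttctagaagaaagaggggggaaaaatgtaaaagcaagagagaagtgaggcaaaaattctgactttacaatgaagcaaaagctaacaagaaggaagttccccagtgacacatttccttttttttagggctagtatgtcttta
Fcrls, chr3:87263525-87263774, minus strand: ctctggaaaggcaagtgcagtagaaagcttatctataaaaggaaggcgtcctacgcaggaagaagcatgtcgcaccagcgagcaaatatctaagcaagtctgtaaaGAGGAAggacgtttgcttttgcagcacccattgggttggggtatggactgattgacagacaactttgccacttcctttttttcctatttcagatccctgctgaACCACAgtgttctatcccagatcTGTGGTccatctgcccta
GAGGAA was found in 2 of the 6 promoters, at -48 to -43 from the start of P2ry13 and at -144 to -139 from that of Fcrls, against 23.3% of all 32851 promoters of this length. TGTGGT was found in 3 of the 6, once in P2ry13 (-214 to -209), at 2 positions in Fcrls (-41 to -36 and -18 to -13) and once in Cx3cr1 (-54 to -49), against 14% of all promoters. The ETS-IRF composite (GGAA and GAAA with any 2 bases between them, on either strand) was in none of the 6 and in 2.3% of all promoters. In P2ry12 none of these letters were found in this window. The RefSeq start differs from the GENCODE gene limit given above for P2ry12, Fcrls, Cx3cr1 and Slc2a5. The Fcrls window overlaps the GENCODE gene, and its marked stretches lie within that gene. The Cx3cr1 window (chr9:120068297-120068546) lies wholly within its GENCODE gene, and the Slc2a5 window runs past its GENCODE gene start.

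In bulk tumours, 8 of the 9 genes had lower levels in Cx3cr1-Rheb1 Δ/Δ than in Rheb1 fl/fl mice (49.8% of 17028 tested genes did), with a median log2 fold change of -1.80 against 0.00 over all tested genes. The sign turned for Selplg when libraries were scaled to shared myeloid genes and for P2ry12 in the deposited TPM values, both described further on. None passed an adjusted p of 0.05 in edgeR's quasi-likelihood test with a change of at least 1.5-fold (percent called over all genes: 0.0 in either direction). Of the 9, 4, P2ry13, Cx3cr1, Tmem119 and P2ry12, were lower at an unadjusted p under 0.05, as were 5.19% of all genes. None was higher at that level (3.82% of all genes). In 5 of the 9 all 3 Δ/Δ tumours were below all 3 fl/fl tumours, as in 9.23% of all genes. Without Cx3cr1, whose dose differs by design, 7 of 8 genes were lower, with a median of -1.74, and 3 of them at an unadjusted p under 0.05. Slc2a5 was the only one of the 9 with a positive difference. Fewer microglia in a tumour and less RNA of these genes per microglial cell cannot be told apart in bulk RNA.

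Among the purine receptors, P2ry13, a Gi-coupled receptor for ADP, showed the largest difference. Its levels in fl/fl tumours 35, 38 and 110 were 29.3, 10.8 and 56.1 CPM, and in Δ/Δ tumours 36, 37 and 26 they were 0, 0.209 and 1.27 CPM, from 0, 4 and 18 counts. The groups were far apart, and the 0 in replicate 36 allows a level of up to 0.192 CPM (3 counts, counting error only). The log2 fold change was -6.03 (SE 1.37, adjusted p = 0.175 in edgeR's quasi-likelihood test), and the likelihood ratio test of edgeR, which the study used, called it lower with an adjusted p of 0.000927, as it did 1.53% of all genes. P2ry12, the ADP receptor with which resting microglia steer their processes to injured cells, was at 27.1, 27.5 and 77.3 CPM in fl/fl tumours 35, 38 and 110 and at 10.5, 26.5 and 4.23 CPM in Δ/Δ tumours 36, 37 and 26. The groups only just failed to overlap, since Δ/Δ replicate 37 lay next to the 2 lower fl/fl tumours, and the log2 fold change was -1.68 (SE 0.738, adjusted p = 0.532 in edgeR's quasi-likelihood test).

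Cx3cr1, the receptor for the neuronal chemokine Cx3cl1, was split among the Δ/Δ tumours. It was at 61.1, 87.3 and 139 CPM in fl/fl tumours 35, 38 and 110, and at 0.384, 26.9 and 0.493 CPM in Δ/Δ tumours 36, 37 and 26. Replicates 36 and 26 were close to 0 and replicate 37 was below the lowest fl/fl tumour. The log2 fold change was -3.37 (SE 1.26, adjusted p = 0.438 in edgeR's quasi-likelihood test). Cre sits in this locus, so the altered gene dose and any response to the loss of Rheb1 cannot be told apart here. Fcrls, a microglial Fc receptor-like molecule, followed the same libraries: 14.5, 16.9 and 7.43 CPM in fl/fl tumours 35, 38 and 110, and 0.192, 15.3 and 0.352 CPM in Δ/Δ tumours 36, 37 and 26. Here replicate 37 lay inside the fl/fl range, so the groups overlapped, and the log2 fold change of -1.29 (SE 1.44) was within the spread between tumours. Gpr34, a receptor for lysophosphatidylserine, was low throughout, at 2.61, 2.52 and 9.05 CPM against 0.0639, 2.04 and 0.634 CPM in the same order of tumours, with a log2 fold change of -2.36 (SE 1.53, adjusted p = 0.696 in edgeR's quasi-likelihood test). The groups did not overlap, but replicate 37 was again next to the lower fl/fl tumours.

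Tmem119, a transmembrane protein that marks microglia and whose function there is little known, was at 98.8, 41.2 and 61.7 CPM in fl/fl tumours 35, 38 and 110 and at 3.90, 34.6 and 19.3 CPM in Δ/Δ tumours 36, 37 and 26. All Δ/Δ tumours were below all fl/fl tumours, with a log2 fold change of -1.80 (SE 0.691, adjusted p = 0.459 in edgeR's quasi-likelihood test). Olfml3, a secreted matrix protein, was at 20.3, 45.0 and 65.4 CPM against 6.39, 26 and 0.846 CPM in the same order of tumours, where Δ/Δ replicate 37 was above fl/fl replicate 35, and its log2 fold change was -1.97 (SE 0.968). Selplg, the leukocyte ligand of P-selectin, differed least of the 8 genes with lower levels: it was at 27.6, 34.3 and 50.8 CPM in fl/fl tumours and at 10.2, 28.1 and 40.8 CPM in Δ/Δ tumours 36, 37 and 26, with a log2 fold change of -0.51 (SE 0.580). Slc2a5, the fructose transporter GLUT5, was near the detection limit in bulk, at 0.723, 0.359 and 0.749 CPM in fl/fl tumours 35, 38 and 110 and at 0.959, 1.05 and 2.18 CPM in Δ/Δ tumours 36, 37 and 26. The Δ/Δ tumours were all above the fl/fl tumours, as for 7.82% of all genes, and the log2 fold change was 1.19 (SE 1.24, adjusted p = 0.839 in edgeR's quasi-likelihood test).

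One tumour decided much of this spread. Δ/Δ replicate 37 had the highest level of the 3 Δ/Δ tumours for 6 of the 9 genes, the exceptions being P2ry13, Selplg and Slc2a5. Without it, 6 of the 9 genes and 7.69% of all genes were lower at an unadjusted p under 0.05. Cx3cr1, whose dose differs by design, was then called lower, as were 0.0382% of all genes, with a log2 fold change of -7.75 (adjusted p = 0.0126 in edgeR's quasi-likelihood test). The log2 fold change of Fcrls was -5.54 in place of -1.29, without passing the adjusted threshold. Without fl/fl replicate 35, the tumour with Xist counts, 3 of the 9 were lower at an unadjusted p under 0.05 (4.36% of all genes) and none was called. The count was 2 without fl/fl replicate 110 (4.2% of all genes), where the log2 fold change of P2ry12 was -1.01 (SE 0.847), and 2 without Δ/Δ replicate 26 (5.9% of all genes). The 9 genes together took 0.0269% to 0.048% of all counts in fl/fl tumours and 0.00319% to 0.0155% in Δ/Δ tumours.

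**Figure D1:**
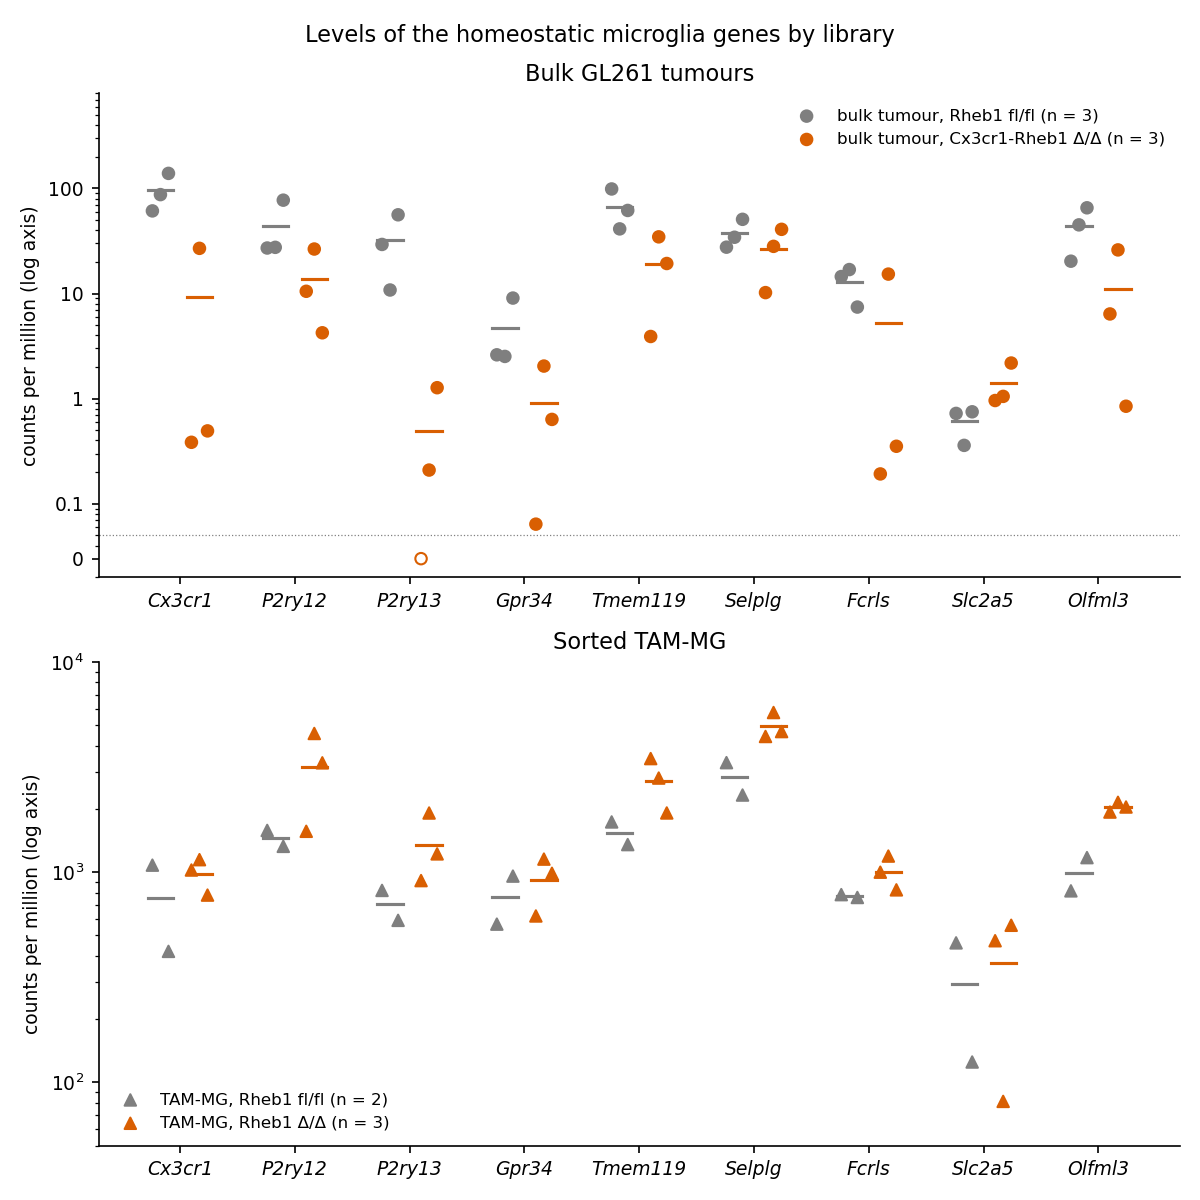
Level of each of the 9 genes in every library, in CPM on a log axis, for bulk tumours (top) and sorted TAM-MG (bottom). Grey symbols are Rheb1 fl/fl and orange symbols Δ/Δ libraries, short lines are group means, and the open circle below the dotted line is the Δ/Δ tumour with 0 P2ry13 counts. In bulk, P2ry13 was at 10.8 to 56.1 CPM in fl/fl tumours and at 0 to 1.27 CPM in Δ/Δ tumours, whereas in TAM-MG the lowest of all values was 81.2 CPM, of Slc2a5.

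Genes that every myeloid cell uses were lower in the same tumours. All 16 of the shared myeloid genes, a list that holds Ptprc, Itgam, Tyrobp and Spi1, had negative log2 fold changes in bulk, with a median of -1.42, 10 of 16 at an unadjusted p under 0.05, and summed levels of 892 to 1287 CPM in fl/fl against 277 to 481 CPM in Δ/Δ tumours. Tyrobp, the adaptor of Trem2 and of other activating receptors, had a log2 fold change of -1.50 (SE 0.358) and Fcer1g, the common Fc receptor γ chain, one of -1.80 (SE 0.307), both with adjusted p above the threshold (0.194 and 0.123 in edgeR's quasi-likelihood test), and both were called lower by the likelihood ratio test (0.0138 and 0.000249). Of the markers of recruited macrophages and monocytes, 13 of 16 tested were lower, with a median of -2.12 and 8 at an unadjusted p under 0.05. The part of these myeloid levels in the differences of the 9 genes was not tested with a model of its own. When libraries were scaled to the 16 shared myeloid genes instead of TMM, 1 of the 9, P2ry13, was lower at an unadjusted p under 0.05, as were 0.834% of all genes. On that scale the log2 fold change was -0.10 for P2ry12, -0.18 for Tmem119, -2.11 for Cx3cr1 and -3.76 for P2ry13, none of them called, and Selplg turned to 1.42 (adjusted p = 0.144 in edgeR's quasi-likelihood test). This scaling moved the median of all tested genes to 1.72.

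The TPM values that the study estimated with Salmon did not give the same picture for every gene. They cover 6 of the 9 genes in bulk. For 5 of these, P2ry13, Tmem119, Olfml3, Cx3cr1 and Selplg, the difference in log2(TPM + 1) was negative, as in the counts. P2ry12 went the other way. Its TPM values were 2.02, 0.833 and 0.00348 in fl/fl tumours 35, 38 and 110 and 3.27, 5.85 and 0.571 in Δ/Δ tumours 36, 37 and 26, while the same libraries held 488, 612 and 1238 counts and 164, 506 and 60 counts. The fl/fl tumour with the most P2ry12 counts thus had the lowest TPM, so the direction for P2ry12 in bulk depends on which deposited table is read.

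In sorted TAM-MG the direction was the other one: all 9 genes had higher levels in Rheb1 Δ/Δ than in Rheb1 fl/fl cells (53.5% of 14872 tested genes did), with a median log2 fold change of 0.81 against 0.08 over all tested genes. None of the 9 passed the adjusted threshold in edgeR's quasi-likelihood test (percent called over all genes: 0.0). Olfml3 and Selplg were higher at an unadjusted p under 0.05, as were 5.47% of all genes. The count of 2 ran from 1 to 4 when each library was left out, with 1 without Δ/Δ replicate 63 (4.25% of all genes in that fit) or fl/fl replicate 78 (8.53%) and 4 without Δ/Δ replicate 54 (7.13%). DESeq2 called 1 of the 9, Olfml3, and 2.6% of all genes higher. In 5 of the 9, P2ry13, Tmem119, Olfml3, Fcrls and Selplg, every Δ/Δ library was above both fl/fl libraries, as in 14.6% of all genes.

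Olfml3 was the clearest of them. It was at 815 and 1173 CPM in fl/fl TAM-MG 74 and 78, and at 1932, 2150 and 2042 CPM in Δ/Δ TAM-MG 54, 63 and 65. The 3 Δ/Δ libraries were close to each other and well above both controls, with a log2 fold change of 1.04 (SE 0.283, adjusted p = 0.502 in edgeR's quasi-likelihood test). Selplg was at 3320 and 2328 CPM in fl/fl and at 4422, 5749 and 4666 CPM in Δ/Δ libraries in the same order, again without overlap, with a log2 fold change of 0.81 (SE 0.308, adjusted p = 0.552 in edgeR's quasi-likelihood test).

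The nucleotide receptors were spread more widely within the Δ/Δ group. P2ry12 was at 1580 and 1327 CPM in fl/fl TAM-MG 74 and 78 and at 1565, 4570 and 3313 CPM in Δ/Δ TAM-MG 54, 63 and 65. Replicate 54 lay between the controls and the other Δ/Δ libraries were above them, with a log2 fold change of 1.12 (SE 0.489, adjusted p = 0.552 in edgeR's quasi-likelihood test). P2ry13 was at 819 and 590 CPM against 912, 1912 and 1222 CPM in the same order, a log2 fold change of 0.94 (SE 0.398), and replicate 63 was the highest for both receptors. Tmem119 was at 1734 and 1353 CPM against 3471, 2804 and 1913 CPM, a log2 fold change of 0.82 (SE 0.350), with replicate 54 highest. Fcrls was at 782 and 758 CPM against 1000, 1193 and 824 CPM, a log2 fold change of 0.39 (SE 0.269), where the lowest Δ/Δ library was just above the controls.

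For the remaining 3 genes the genotypes overlapped. Cx3cr1 was at 1080 and 420 CPM in fl/fl TAM-MG 74 and 78 and at 1024, 1147 and 778 CPM in Δ/Δ TAM-MG 54, 63 and 65. The Δ/Δ cells, which carry Cre at this locus, were not below the controls, and the log2 fold change of 0.39 (SE 0.450) had a 95% interval of -0.71 to 1.49. Gpr34 was at 566 and 958 CPM against 619, 1154 and 988 CPM (log2 fold change 0.27, SE 0.388). Slc2a5 fell into high and low libraries of both genotypes, at 461 and 125 CPM against 472, 81.2 and 559 CPM, and its log2 fold change of 0.34 (SE 0.894) was far within that spread. The sign of these 3 differences turned when 1 library was left out: that of Cx3cr1 to -0.12 without fl/fl replicate 78, that of Gpr34 to -0.04 without fl/fl replicate 74, and that of Slc2a5 to -0.30 without fl/fl replicate 78.

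Within sorted cells the shared myeloid genes were level between genotypes, with a median log2 fold change of 0.04 over 16 genes, 7 negative and 9 positive, and summed levels of 18079 and 27248 CPM in fl/fl against 21834 to 24027 CPM in Δ/Δ. Scaling to them left the sign of all 9 differences as it was. The 37 other resting microglia genes went the way of the 9 in most cases: 31 were positive, with a median of 0.50 and 6 at an unadjusted p under 0.05, though Ctss, Cst3 and C1qb, which are among the most abundant of them, had log2 fold changes of -0.05 to 0.50. The activated microglia genes went the other way: 17 of 20 were negative, with a median of -0.92, among them Apoe, the lipid carrier, with -1.50 (SE 0.886) and the cathepsin Ctsb with -1.22 (SE 0.538). Their summed level was 25750 and 64300 CPM in fl/fl and 15288 to 35180 CPM in Δ/Δ TAM-MG, so the genotypes overlapped. In edgeR's quasi-likelihood test none of the genes in these lists was called, and the likelihood ratio test called Sall1 higher (adjusted p = 0.00746) and Itgax lower (adjusted p = 0.0183). Of the regulators of microglial identity, 15 of 16 were positive, with a median of 0.70, among them Nrros, which presents TGF-β on microglia (0.79, SE 0.355). None of them was called in the quasi-likelihood test, and the likelihood ratio test called Sall1, which is also on this list, and Ikzf1 (adjusted p = 0.0398) higher. These 3 genes are named because they were called by that test, after their values were seen.

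Markers of other cells were measured in the same libraries. Ly6g, which marks neutrophils and is 1 of 10 granulocyte markers, had 0 counts in all TAM-MG and all bulk libraries. The 10 granulocyte markers together summed to 235 and 356 CPM in fl/fl and to 390 to 465 CPM in Δ/Δ TAM-MG, led by Csf3r. Csf3r alone averaged 215 CPM in fl/fl and 368 CPM in Δ/Δ TAM-MG, so these sums mostly follow that gene. Of the 8 granulocyte markers tested in TAM-MG, 4 were negative and 4 positive, with a median log2 fold change of -0.01. Which cells the Csf3r counts came from was not tested. In bulk the 10 granulocyte markers summed to 1.07 to 32.9 CPM. Of 10 T cell markers, 8 had 0 counts in both fl/fl TAM-MG libraries and 2 in all Δ/Δ TAM-MG libraries. Their sums overlapped, at 22.4 and 31.2 CPM in fl/fl and 12.4 to 27.2 CPM in Δ/Δ TAM-MG. Markers of recruited macrophages and monocytes summed to 1810 and 2418 CPM in fl/fl and to 999 to 2709 CPM in Δ/Δ TAM-MG, and 12 of 16 tested were negative, with a median of -0.41. Oligodendrocyte markers summed to 329 and 449 CPM in fl/fl and to 247 to 362 CPM in Δ/Δ TAM-MG. Astrocyte markers summed to 307 and 696 CPM in fl/fl and to 380 to 548 CPM in Δ/Δ TAM-MG. Endothelial markers summed to 67.5 and 79.4 CPM in fl/fl and to 109 to 136 CPM in Δ/Δ TAM-MG, without overlap. In bulk fl/fl tumours, recruited macrophage and monocyte markers summed to 2782 to 4162 CPM and endothelial markers to 118 to 169 CPM. In bulk Δ/Δ tumours these sums were 1595 to 3136 and 82.8 to 151 CPM, so both lists overlapped with TAM-MG. T cell markers, at 8.25 to 114 CPM in bulk, overlapped too. Oligodendrocyte and astrocyte markers were higher in bulk, at no less than 2665 and 1287 CPM. Whether these marker levels have a part in the differences of the 9 genes was not tested.

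**Figure D2:**
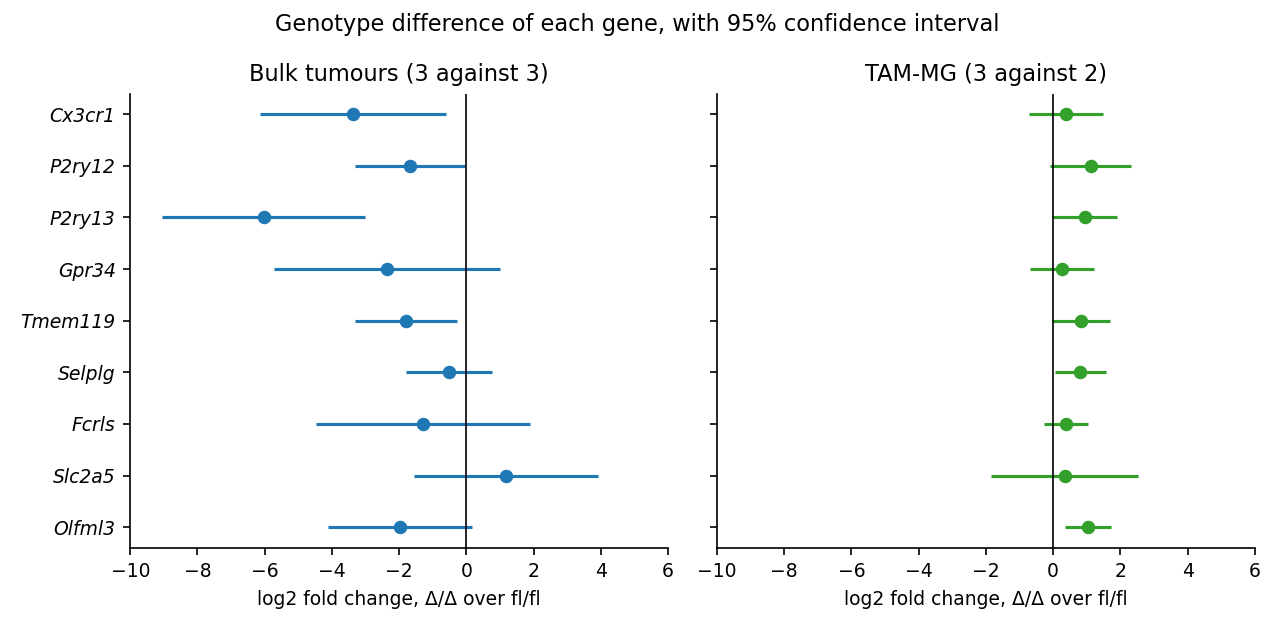
Log2 fold change of Δ/Δ over fl/fl for each of the 9 genes in bulk tumours (left) and TAM-MG (right), with points for the edgeR estimate and lines for its 95% confidence interval. In bulk 8 of 9 points lie below 0 and P2ry13 is at -6.03, and in TAM-MG all 9 lie above 0 and none exceeds 1.12.

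The genotype effect was then compared between the experiments with an interaction term over all 11 libraries. The difference, TAM-MG minus bulk, was positive for 8 of the 9 genes (57.3% of all genes), Selplg turning to -0.74 when scaled to shared myeloid genes, with a median of 2.66 on the log2 scale against 0.30 over all tested genes. None of the 9 was called, against 0.197% of 21342 genes called in this direction. In 5 of the 9 the unadjusted p was under 0.05, as in 9.3% of all genes: P2ry13 with 7.04 (SE 1.37, adjusted p = 0.0818 in edgeR's quasi-likelihood test), Olfml3 with 3.05 (SE 1.25), P2ry12 with 2.84 (SE 0.974), Tmem119 with 2.66 (SE 0.915) and Gpr34 with 2.63 (SE 1.15). The likelihood ratio test called P2ry13, with an adjusted p of 0.000119, and 3.11% of all genes in this direction. Leaving out bulk Δ/Δ replicate 37 brought Fcrls (6.01, adjusted p = 0.0129) and Cx3cr1 (8.24, adjusted p = 0.0117) past the threshold of edgeR's quasi-likelihood test, along with 0.172% of all genes. The count of 5 at an unadjusted p under 0.05 was 3 without bulk fl/fl replicate 110 (7.67% of all genes) or TAM-MG fl/fl replicate 74 (6.83%). Slc2a5 was the exception in sign, at -0.80 (SE 1.03).

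All 9 genes were far more abundant in TAM-MG than in bulk tumours. Each was called higher, as were 20.5% of all 21342 tested genes, and each had all 5 TAM-MG libraries above all 6 bulk libraries, as in 14.6% of all genes. The log2 fold changes ran from 5.41 (SE 0.955, adjusted p = 0.000936 in edgeR's quasi-likelihood test) for Cx3cr1 to 9.21 (SE 0.735, adjusted p = 5.72e-06) for Gpr34, a 42.7-fold and a 594-fold higher level. Between them were Tmem119 (6.41, SE 0.532), Olfml3 (6.59, SE 0.727), P2ry12 (7.02, SE 0.579), Fcrls (7.30, SE 0.975), Selplg (7.46, SE 0.404), P2ry13 (8.53, SE 0.764) and Slc2a5 (9.04, SE 0.665). The 9 genes together took 0.842% and 1.19% of all counts in fl/fl TAM-MG and 1.56% to 2.08% in Δ/Δ TAM-MG. Purity, the source of the RNA and the mice changed together between the experiments, so their parts in these values cannot be told apart.

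The enrichment exceeded that of genes which all myeloid cells share. The 16 shared myeloid genes were all called higher too, with a median log2 fold change of 5.18 against 7.30 for the 9 and -0.89 over all tested genes. When scaled to these myeloid genes, 7 of the 9 remained called higher, as were 2.46% of all genes, from 1.51 for Olfml3 to 4.08 for Gpr34, while Tmem119 (1.12, adjusted p = 0.0601) and Cx3cr1 (0.46, adjusted p = 0.622 in edgeR's quasi-likelihood test) did not pass. This scaling moved the median of all genes to -6.12. In the fl/fl libraries alone, which avoids the altered Cx3cr1 dose, Cx3cr1 was 3.42 higher on the log2 scale and Slc2a5, with 9.35, differed most. In the Δ/Δ libraries alone P2ry13 differed most, with 12.01. Each of the 9 was called higher in both subsets, as were 12.6% of all genes in the fl/fl and 18.4% in the Δ/Δ libraries. Of the 37 other resting microglia genes, 34 were called higher, with a median of 4.95, and all 10 neuron markers were called lower, with a median of -7.33. The median of all genes moved to -1.45 when libraries were scaled by their totals alone, and the share of calls that were higher moved from 38.7% to 27.7%.

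Levels per kilobase of exons allow the genes to be ranked against each other. On the scale shared by all 11 libraries, the order in the 2 fl/fl TAM-MG libraries by median CPM per kilobase was Tmem119 (806), Selplg (798), P2ry12 (691), Gpr34 (445), Fcrls (400), P2ry13 (336), Cx3cr1 (200), Olfml3 (196) and Slc2a5 (103). The lowest level per kilobase of P2ry12, 647, was above the highest of Gpr34, 569, and the neighbours Fcrls and P2ry13, and P2ry13 and Cx3cr1, did not overlap either, while the other neighbours did. In the 3 Δ/Δ TAM-MG libraries the order was P2ry12 (1637), Tmem119 (1544), Selplg (1374), P2ry13 (608), Gpr34 (595), Fcrls (536), Olfml3 (417), Cx3cr1 (284) and Slc2a5 (173). There Selplg and P2ry13, Olfml3 and Cx3cr1, and Cx3cr1 and Slc2a5 were neighbours whose levels per kilobase did not overlap. In both genotypes Tmem119, Selplg and P2ry12 held the first 3 ranks. The deposited TPM values ordered these 3 differently. In fl/fl TAM-MG the median TPM was 2328 for Selplg, 1233 for P2ry12 and 999 for Tmem119. The lowest TPM of Selplg there, 1772, was above the highest of P2ry12, 1520. In Δ/Δ TAM-MG the medians were 3965, 2925 and 2208 in the same order of genes. In bulk fl/fl tumours the order of levels per kilobase was led by Tmem119 (22) and Cx3cr1 (16.2), and Gpr34 (1.03) and Slc2a5 (0.174) were last. Slc2a5 was separated there from Gpr34, its neighbour in rank, whose lowest value of 1.0 was above the highest of Slc2a5, 0.182. By level per kilobase Cx3cr1 thus stood second in fl/fl tumours and seventh in fl/fl TAM-MG, a description of ranks with no test. In the deposited TPM of the fl/fl tumours, which do not cover all of the genes, the medians were 127 for Selplg, 60.0 for Tmem119 and 22.4 for Cx3cr1. The order of the genes therefore depends on the measure.

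**Figure D3:**
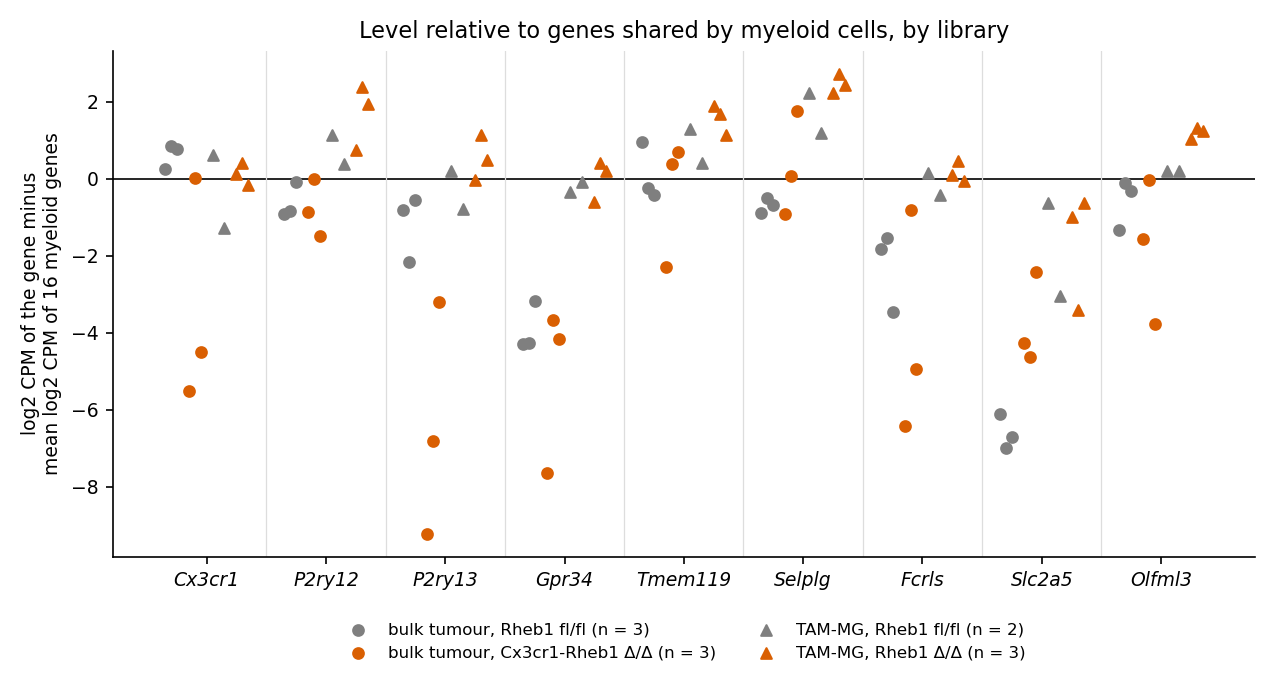
Level of each gene minus the mean of 16 shared myeloid genes, both as log2 CPM, in every library. Circles are bulk tumours and triangles TAM-MG, grey is fl/fl and orange Δ/Δ, and the lowest point, P2ry13 at -9.22, is a library with 0 counts whose position depends on the prior count of 0.5. Selplg was at 1.19 to 2.73 in TAM-MG and at -0.91 to 1.77 in bulk, and Olfml3 was at 1.04 to 1.31 in Δ/Δ against 0.20 in both fl/fl TAM-MG libraries.

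Relative to the shared myeloid genes within each library, the 9 genes followed different patterns in bulk tumours. P2ry12 relative to these genes was between -0.92 and -0.08 in fl/fl and between -1.49 and 0.00 in Δ/Δ tumours on the log2 scale, so the genotypes overlapped throughout. P2ry13 was between -2.17 and -0.54 in fl/fl and between -9.22 and -3.20 in Δ/Δ tumours, with no overlap. Selplg was relatively higher in some Δ/Δ tumours, between -0.89 and -0.51 in fl/fl and between -0.91 and 1.77 in Δ/Δ tumours. Slc2a5 was relatively higher in all Δ/Δ tumours, between -7.00 and -6.10 in fl/fl and between -4.63 and -2.43 in Δ/Δ tumours. These Slc2a5 values rest on 8 to 13 counts in fl/fl and 15 to 31 counts in Δ/Δ tumours. Cx3cr1 was between 0.25 and 0.84 in fl/fl tumours, and at -5.52, 0.02 and -4.50 in Δ/Δ tumours 36, 37 and 26. In TAM-MG, Olfml3 was the one gene of the 9 with a gap of over 0.5 between the genotypes, at 0.20 and 0.20 in fl/fl and at 1.04 to 1.31 in Δ/Δ cells.

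Ligands, enzymes and relatives linked to the 9 genes were distributed differently. Cx3cl1, the ligand of Cx3cr1 that neurons display, was at 106 to 205 CPM in all 6 bulk tumours, did not separate by genotype (log2 fold change -0.12, SE 0.324) and was at 8.25 CPM or less in TAM-MG, where it was called lower than in bulk (-6.42, SE 1.30, adjusted p = 0.00218 in edgeR's quasi-likelihood test). Selp, the P-selectin that Selplg binds, had 0 counts in all 5 TAM-MG libraries. Entpd1, the ectoenzyme CD39 that breaks down ATP and ADP around microglia, was called higher in TAM-MG (6.61, SE 0.337, adjusted p = 8.41e-07 in edgeR's quasi-likelihood test). P2ry14, a receptor for UDP-sugars and a relative of P2ry12 and P2ry13, was at 8.01 to 50.6 CPM in bulk and 4.68 to 22.5 CPM in TAM-MG, with no enrichment detected (0.21, SE 0.525). P2ry6, the receptor for UDP with which microglia start to engulf debris, was called higher in TAM-MG (7.83, SE 0.628), and the interaction of genotype and experiment was called for it (7.29, SE 1.19, adjusted p = 0.0464 in edgeR's quasi-likelihood test). Of the 27 receptor and transporter relatives, 10 of 24 tested were called higher in TAM-MG and 6 lower, and Slc2a1 (GLUT1) did not differ detectably (0.30, SE 0.403), unlike Slc2a5.

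**Figure D4:**
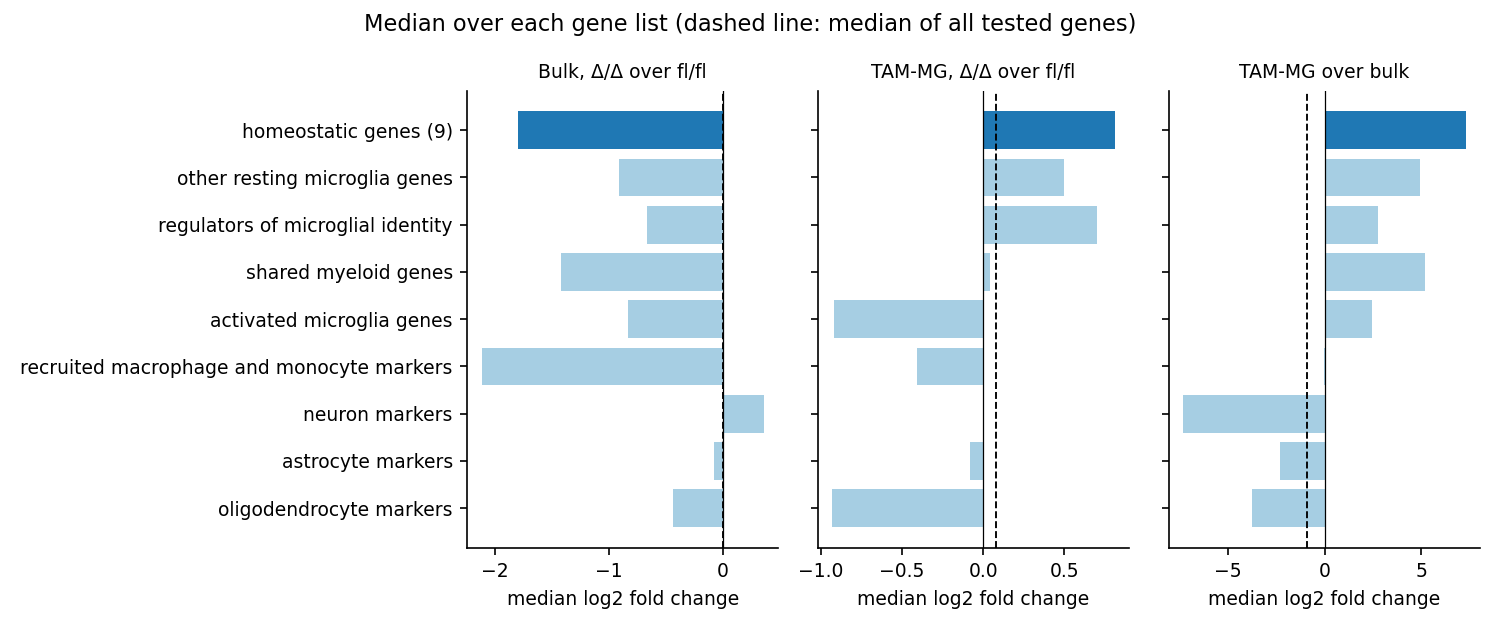
Median log2 fold change over each gene list in 3 comparisons, as bars, with the median of all tested genes as a dashed line. The 9 homeostatic genes were at -1.80 in bulk, 0.81 in TAM-MG and 7.30 in TAM-MG over bulk, and the activated microglia genes were at -0.92 in TAM-MG.

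The levels of the 9 genes were positively related in most pairs, with Slc2a5 the main exception. Over the 6 bulk tumours, Pearson's r of log2 CPM was positive in 28 of 36 pairs, with a median of 0.70, and all 8 negative pairs involved Slc2a5. The highest was 0.96, between P2ry12 and Olfml3. Over the 5 TAM-MG libraries it was positive in 29 of 36 pairs, with a median of 0.60, and highest for P2ry12 and P2ry13 (0.95). These libraries include both genotypes and share their scaling, so the values are descriptions. Among 9167 other genes with a mean of at least 5 CPM in both experiments, those most like the mean of the 9 over 11 libraries, after each gene was centred within its experiment, were Rnase4 (r = 0.974), Capn3 (0.948), Pdzd11 (0.943), Gm26944 (0.943) and Klk8 (0.942).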

How the data were processed

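RNA-seq of 11 libraries was analysed: bulk GL261 tumours (3 Rheb1 fl/fl, 3 Cx3cr1-Rheb1 Δ/Δ) and sorted TAM-MG (2 Rheb1 fl/fl, 3 Rheb1 Δ/Δ). Groups follow the sample labels. No source used here ties each library to a separate mouse, so p-values measure the spread between these libraries. The authors deposited raw counts per gene, made with STAR on GRCm38, and TPM values from Salmon. The versions are not given in the sources used here. A total row closing each TAM-MG table was left out. The bulk TPM table covers 12719 genes. Of 50686 identifiers, 50376 had a name in GENCODE M21.

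The main test on counts was the quasi-likelihood test of edgeR (version 4.0.16, R version 4.3.3), after filterByExpr (at least 10 reads, 15 in all) and TMM, with Benjamini-Hochberg adjustment over all tested genes. Calls needed both an adjusted p below 0.05 and a change of 1.5-fold or more. TAM-MG and bulk tumours were compared, and the interaction tested, in a fit of all 11 libraries with 4 groups. CPM values of genotype comparisons use TMM within an experiment, and levels per kilobase use TMM over all 11. Alternatives were edgeR's likelihood ratio test, DESeq2 1.42.0, limma 3.58.1 on log2(TPM + 1) and log2(TPM + 0.1), other scalings and filters, and leaving out each library. On simulated data, the main test recovered 32% of 4-fold and 56% of 16-fold changes among 17028 genes in bulk tumours, and 4% and 34% among 14872 genes in TAM-MG.

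The 9 genes and all lists were chosen with earlier results of these data known. All 9 are named with their values. Of each other list at most the 4 most abundant tested genes are named, besides Cx3cl1, Selp and P2ry14. Rheb was named as the deleted gene. Itgam, Ptprc, Xist, Ddx3y, Ly6g, Sall1, Itgax and Ikzf1 were named after their values were seen. Some genes of these lists are not reported here by name.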

Additional observations from a re-analysis of the deposited data

How the results depend on the processing

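The count of the 9 genes called lower in bulk Δ/Δ tumours was 0 in the main test and 1, P2ry13, with the likelihood ratio test, with DESeq2 and without the filter, and it ranged from 0 to 1 when each library was left out, the 1 being Cx3cr1 without Δ/Δ replicate 37. In TAM-MG, 1 gene was called higher with DESeq2 (Olfml3, adjusted p = 0.00345) and 0 otherwise. Of the 9 called higher in TAM-MG over bulk, 4 were tested and called with at least 10 counts required in every library. In that fit 2279 genes were called higher and 2292 lower, so 49.9% of all calls were higher. For the interaction, 1 (P2ry13) was called with the likelihood ratio test, and 0 to 2 when a library was left out. Signs turned for Selplg when scaled to shared myeloid genes (1.42 in bulk, -0.74 for the interaction) and for P2ry12 in bulk with limma on TPM (1.02 with a pseudocount of 1 and 2.01 with 0.1). When a library was left out, the TAM-MG difference ranged from -0.12 to 1.24 for Cx3cr1, from -0.04 to 0.71 for Gpr34 and from -0.30 to 1.59 for Slc2a5, and the interaction of Slc2a5 from -1.40 to 0.41. The cause was not tested. Over all genes, 0 were called in bulk by the main test, against 260 lower and 123 higher with the likelihood ratio test, 334 and 140 with DESeq2, 85 and 17 without the filter, 54 and 8 with the stricter filter, and 17 and 1 with all 11 libraries in 1 fit. In TAM-MG the counts were 0 against 70 lower and 175 higher with the likelihood ratio test, 90 and 387 with DESeq2, and 10 and 55 in the joint fit. Leaving out a fl/fl TAM-MG library leaves 1 sample, which is then assumed to vary like the other group. TPM was not compared between TAM-MG and bulk, since the tables were normalized separately. No paired analysis was possible because the replicate numbers are not shared between groups.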
